A study of Mus musculus with 6 samples.

Results

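The genes described here build and drive motile cilia. They are 39 genes in all: the heavy and intermediate chains of axonemal dynein, other proteins of the axoneme, and transcription and cell cycle factors of ciliogenesis. They were taken from a list of named genes out of 52230 genes counted, and were chosen by function with the genotype contrast of these same libraries already known. The counts of members that were higher or lower in that contrast therefore describe the members and carry no test of the list, and the fold changes and adjusted p of single members, which come from a fit over all genes, are likewise given as description. Of the 39 members, 38 passed the expression filter of at least 0.25 CPM (counts scaled to the library total) in at least 3 libraries, and each of the 38 reached that level in all 6 libraries. The exception was *Tmem212*, which reached it in 2 Deletion libraries and in 0 WT libraries and was not tested. Its estimated counts were 26, 30 and 15 in Deletion libraries, against 6, 12 and 5 in WT libraries.

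Poly(A)-selected RNA from whole hippocampi of newborn pups (postnatal day 0) was sequenced with a stranded kit, with 3 *Mov10* Deletion libraries and 3 wild-type (WT) libraries, each a pool of hippocampi of at least 2 pups. MOV10 is an RNA helicase that binds mRNA and works with the microRNA machinery. In the *Mov10* Deletion mouse, exons of *Mov10* flanked by loxP sites are removed by Cre recombinase from the *Emx1* locus, and the animals also carry a germline mutant *Mov10* allele. The floxed line was made in C57BL/6 embryonic stem cells. The WT mice were C57BL/6 animals that carry no engineered allele, by the study's definition of the term, so Cre itself also differs between the groups and cannot be told apart from the loss of *Mov10*. *Emx1* drives Cre in the progenitors that give the excitatory neurons and glia of cortex and hippocampus, and cells outside that lineage are not recombined.

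A motile cilium is built on an axoneme, a ring of microtubule doublets around a central pair of microtubules. Inner and outer rows of dynein arms walk along the neighbouring doublet and bend the cilium, and their force is controlled by radial spokes and the central pair. In the brain such cilia stand in tufts on ependymal cells and on choroid plexus epithelium, where they move cerebrospinal fluid. Ependymal cells derive from radial glia and grow their tufts after birth. Neurons and most other brain cells carry a single primary cilium, which has no dynein arms.

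The libraries held between 71400300 and 86207971 estimated counts. *Mov10* had 2.45, 2.13 and 2.09 CPM in Deletion libraries, against 4.81, 4.75 and 4.80 CPM in WT libraries (log2 fold change -1.11, SE 0.10, adjusted p = 0.00115), so its mRNA was lower in each library labelled Deletion, though not absent. The pools differed in sex and in choroid plexus content within each group. *Xist*, the female X-inactivation RNA, had 0.184, 888 and 1.57 CPM in Deletion libraries, against 182, 251 and 643 CPM in WT libraries. *Ttr*, the leading choroid plexus transcript, had 45.6, 0.786 and 3.75 CPM in Deletion libraries, against 13.4, 11.6 and 5.10 CPM in WT libraries. Deletion replicate 1 was highest and Deletion replicate 2 lowest for *Ttr*, with the WT libraries between them. In bulk tissue, fewer or more cells of a type and less or more RNA per cell cannot be told apart, and that holds for every value that follows.

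Members of the motor itself and of the central pair were mostly higher in *Mov10* Deletion hippocampus, while the transcription and cell cycle regulators were not. Across the 38 tested members, 20 were higher, 2 were lower and 16 did not pass (limma-trend with 2 factors of unwanted variation, Benjamini-Hochberg adjusted p under 0.05 over 16745 genes). Of all tested genes 12.6% were called higher and 12.1% lower. Since the members were put together with this contrast known, the difference from that background is not read as a result. The median log2 fold change of the members was 0.52, against 0.0056 over all tested genes, and the members ran between -0.35 and 1.45. All 3 Deletion libraries lay above all 3 WT libraries for 23 members and below them for 2, against 20.4% and 21.2% of all tested genes. The groups overlapped for the other 13. The calls went by role, and role went with transcript length, as described further on. Among heavy chains 12 of 14 were higher, and among central pair genes 5 of 6. None of the 3 radial spoke head genes and none of the 5 regulators was called higher, whether by limma, by edgeR or by DESeq2, and 0 of these 8 had an unadjusted p under 0.05 with a positive change. The exceptions arose with a library left out: *Rfx3* was then called higher without Deletion replicate 2 or WT replicate 1, and *Rsph1* without WT replicate 2, as given with each gene.

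**Figure D1:**
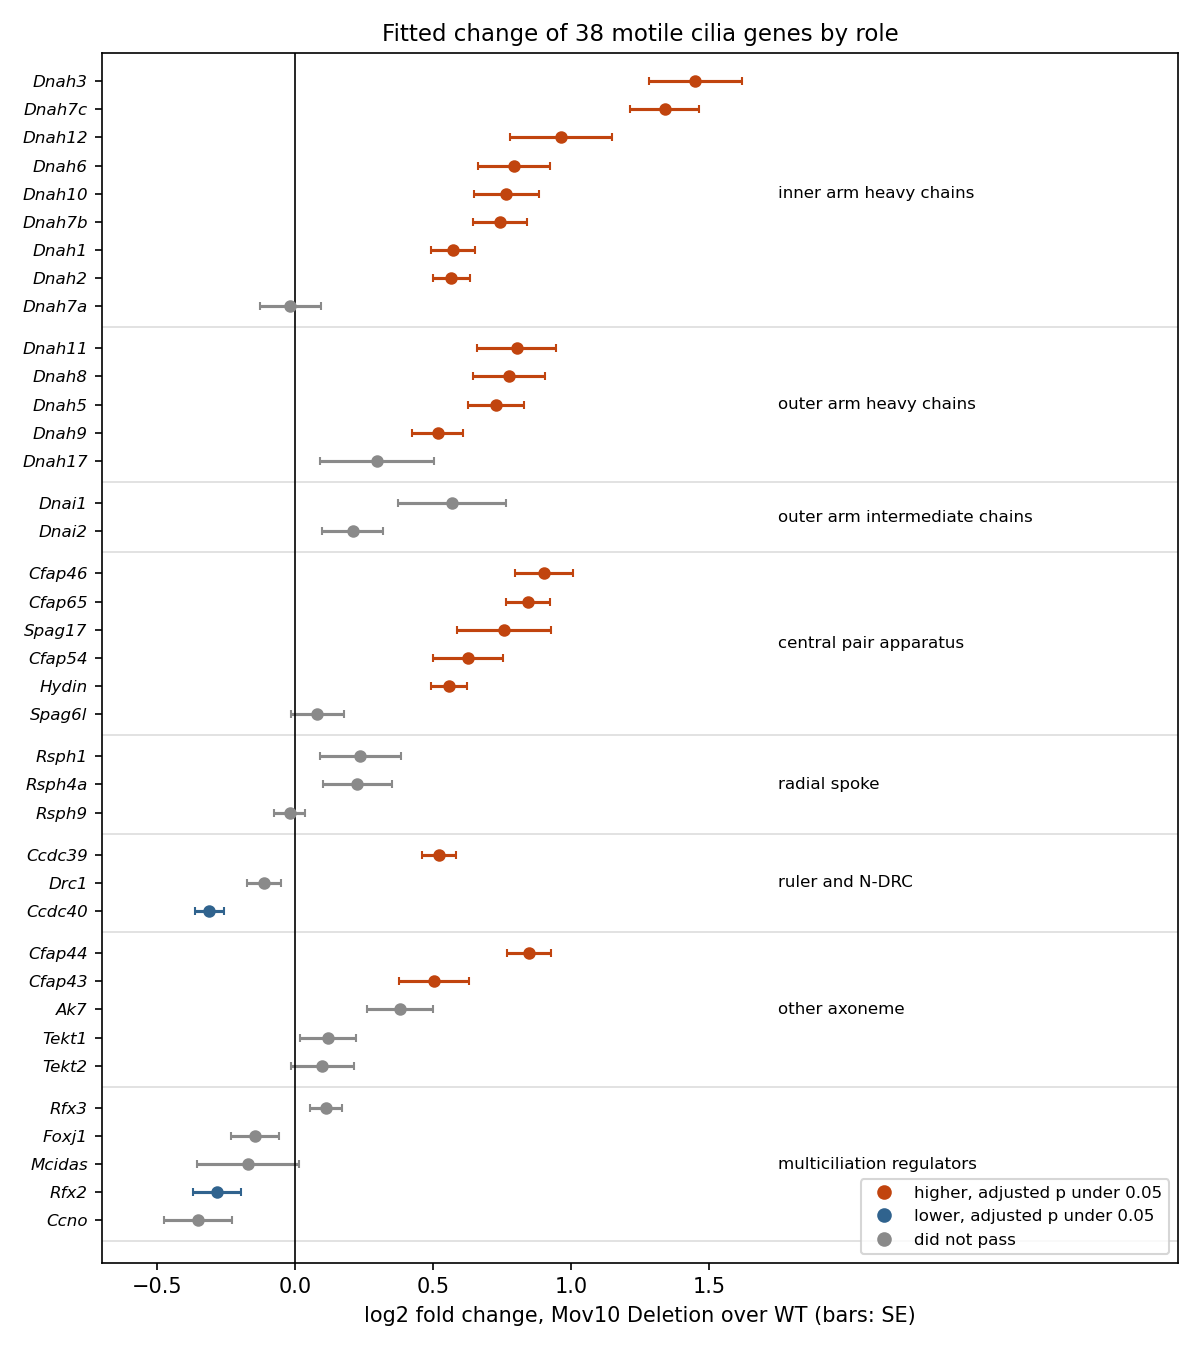
Fitted log2 fold change (x axis, Mov10 Deletion over WT) of each of the 38 tested members, one gene a line and grouped by role, with bars for the standard error and colour for the call. The 14 heavy chains run between -0.02 and 1.45, while the 5 regulators lie between -0.35 and 0.11.

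The inner dynein arms set the shape of the ciliary bend. Their heavy chains, the motor subunits, had 8 of 9 members higher, with a median log2 fold change of 0.77. Of all tested genes 12.6% were higher. Among the 157 genes outside the members whose leading transcript has at least 12000 bases, 48.4% were higher. *Dnah3* had 3.90, 3.85 and 3.08 CPM in Deletion libraries, against 1.35, 1.46 and 0.806 CPM in WT libraries (log2 fold change 1.45, SE 0.17, adjusted p = 0.00210). The groups did not overlap, and no other member had a higher fold change. *Dnah12* had 3.07, 4.03 and 3.05 CPM in Deletion libraries, against 1.74, 2.02 and 1.08 CPM in WT libraries (log2 fold change 0.96, SE 0.18, adjusted p = 0.0105). *Dnah6* had 7.66, 7.71 and 6.22 CPM in Deletion libraries, against 4.03, 4.60 and 3.27 CPM in WT libraries (log2 fold change 0.79, SE 0.13, adjusted p = 0.00630). Like *Dnah3*, these encode single-headed inner arm motors, and their groups did not overlap. *Dnah1* had 8.51, 10.5 and 9.51 CPM in Deletion libraries, against 6.76, 6.51 and 5.18 CPM in WT libraries (log2 fold change 0.57, SE 0.08, adjusted p = 0.00350). *Dnah2* had 19.4, 22.7 and 24.6 CPM in Deletion libraries, against 15.2, 15.3 and 14.2 CPM in WT libraries (log2 fold change 0.57, SE 0.07, adjusted p = 0.00226). *Dnah10* had 6.06, 6.87 and 7.08 CPM in Deletion libraries, against 3.62, 4.52 and 3.68 CPM in WT libraries (log2 fold change 0.77, SE 0.12, adjusted p = 0.00483). DNAH2 and DNAH10 are the paired motors of the inner arm dynein f, and *DNAH1* in humans is a known gene of sperm flagellar defects. For all 3 genes every Deletion library lay above every WT library in CPM, and the differences were smaller than that of *Dnah3*. In TPM, which is corrected for transcript length, the groups of *Dnah1* overlapped. It had 2.88, 3.31 and 3.51 TPM in Deletion libraries, against 2.90, 2.37 and 2.17 TPM in WT libraries. TPM sums all transcripts of a gene, and a count on a short one weighs more. The full-length Dnah1-201 held 446, 536 and 406 estimated counts in Deletion libraries, against 288, 293 and 189 in WT libraries, not scaled for depth. The 2897-base Dnah1-202, with no defined coding sequence, held 249, 268 and 273 in Deletion libraries, against 294, 199 and 209 in WT libraries.

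*Dnah7* exists in mouse as 3 copies on chromosome 1. On GRCm39, *Dnah7b* lies at 46105475 to 46412710 and *Dnah7c* at 46464752 to 46846636, both on the plus strand, and *Dnah7a* lies at 53436165 to 53746005 on the minus strand. Their canonical coding sequences each have 12075 bases and are 96.96% identical between *Dnah7a* and *Dnah7b*, 96.84% between *Dnah7a* and *Dnah7c*, and 97.28% between *Dnah7b* and *Dnah7c*. Between 4.98% and 7.87% of stretches of 150 coding bases occur without a mismatch in a second copy, so most such stretches hold at least 1 difference by which reads could be assigned. The 30-base window in which the copies differ most, coding bases 263 to 292, shows how they are told apart, with capitals at the 10 positions where the 3 are not all alike (GENCODE M39 transcripts, GRCm39 chromosome 1).
Dnah7a: aGCactGccAgAAaaaaggAaaacTTctgG
Dnah7b: aGTactTccAgCAaaaaggCaaacAActgT
Dnah7c: aACactAccGgAGaaaaggGaaacTTctgG

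*Dnah7c* had 3.27, 3.37 and 3.24 CPM in Deletion libraries, against 1.42, 1.17 and 1.14 CPM in WT libraries (log2 fold change 1.34, SE 0.12, adjusted p = 0.00125). *Dnah7b* had 11.6, 13.9 and 16.5 CPM in Deletion libraries, against 8.44, 8.44 and 8.10 CPM in WT libraries (log2 fold change 0.74, SE 0.10, adjusted p = 0.00278). Both copies were higher in Deletion with no overlap, *Dnah7c* by the larger fold. *Dnah7a* had 2.72, 3.06 and 2.89 CPM in Deletion libraries, against 2.75, 3.18 and 3.00 CPM in WT libraries (log2 fold change -0.02, SE 0.11, adjusted p = 0.924). Its groups overlapped, and its level rests on a short transcript. Dnah7a-202, a 732-base model with no defined coding sequence, held 170.0, 177 and 153 estimated counts in Deletion libraries, against 176, 155 and 156 in WT libraries. The full-length Dnah7a-201 held 52, 57.4 and 53.4 estimated counts in Deletion libraries, against 60.8, 85.6 and 74.9 in WT libraries, not scaled for depth and not tested. Since estimated counts can be split wrongly between near-identical copies, the 3 were also summed: the sum was 17.6, 20.4 and 22.6 CPM in Deletion libraries, against 12.6, 12.8 and 12.2 CPM in WT libraries (log2 fold change 0.68, SE 0.07, adjusted p = 0.00177). The sum was higher in each Deletion library than in any WT library.

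The outer arms supply most of the power of the beat. Of their 5 heavy chains 4 were higher, with a median log2 fold change of 0.73. The shares were 12.6% over all tested genes and 48.4% over the 157 other genes of at least 12000 bases. *Dnah5* had 6.22, 6.68 and 6.43 CPM in Deletion libraries, against 3.86, 4.21 and 3.28 CPM in WT libraries (log2 fold change 0.73, SE 0.10, adjusted p = 0.00354). *Dnah9* had 20.6, 19.9 and 18.6 CPM in Deletion libraries, against 13.2, 15.4 and 11.6 CPM in WT libraries (log2 fold change 0.52, SE 0.09, adjusted p = 0.00847). *Dnah11* had 4.38, 3.68 and 3.36 CPM in Deletion libraries, against 1.82, 2.62 and 2.24 CPM in WT libraries (log2 fold change 0.80, SE 0.14, adjusted p = 0.00823). DNAH5 pairs with DNAH9 or, near the base of the cilium, with DNAH11, and in humans loss of DNAH5 or DNAH11 is a cause of primary ciliary dyskinesia. In CPM, each of these genes had its groups apart. The full-length Dnah11-201 held 320, 206 and 240 estimated counts in Deletion libraries, against 98.4, 128 and 120 in WT libraries, not scaled for depth. In TPM, a level corrected for length and summed over all transcripts of the gene, the groups of *Dnah11* overlapped. It had 0.863, 0.573 and 0.454 TPM in Deletion libraries, against 0.556, 0.441 and 0.352 TPM in WT libraries. Its call was lost with length-scaled counts, which are TPM turned back into counts at a mean length per gene (log2 fold change 0.33, adjusted p = 0.195), with a sex score from *Xist* and Y-linked genes in place of the factors (adjusted p = 0.0595) and with no filter on low counts (adjusted p = 0.0778). *Dnah8*, the counterpart of *Dnah5* in sperm, was higher by counts with 2.31, 2.33 and 2.24 CPM in Deletion libraries, against 1.46, 1.32 and 0.950 CPM in WT libraries (log2 fold change 0.78, SE 0.13, adjusted p = 0.00682), but not by TPM, where it had 0.456, 0.268 and 0.265 TPM in Deletion libraries, against 0.698, 0.487 and 0.444 TPM in WT libraries. The 983-base transcript Dnah8-212 held 0 counts in each Deletion library, against 15.6, 11.4 and 11.9 estimated counts in WT libraries. With length-scaled counts the log2 fold change was -0.85 (adjusted p = 0.0176), so the direction of *Dnah8* depends on how transcripts are weighed. *Dnah17*, the sperm counterpart of *Dnah9*, lay between 0.551 and 0.668 CPM in Deletion libraries, against 0.442 to 0.542 CPM in WT libraries, and did not pass (adjusted p = 0.327). Summed over the 14 heavy chains, the level was 100.3, 109 and 108 CPM in Deletion libraries, against 66.2, 71.3 and 59 CPM in WT libraries. The Deletion libraries differed among themselves by less than their distance from WT.

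The intermediate chains hold the outer arm to its doublet, and neither of the 2 measured members passed. *Dnai2* had 5.33, 5.47 and 4.50 CPM in Deletion libraries, against 4.27, 4.62 and 4.19 CPM in WT libraries (log2 fold change 0.21, SE 0.11, adjusted p = 0.203). *Dnai1* lay between 1.43 and 1.51 CPM in Deletion libraries, against 0.676 to 1.19 CPM in WT libraries (log2 fold change 0.57, SE 0.20, adjusted p = 0.0688), so its groups were apart although the test was not passed. It passed in 6 of 21 alternatives, among them the fit without factors (adjusted p = 0.0447), DESeq2 (0.0499) and the fits without WT replicate 1 (0.0443) or WT replicate 2 (0.0175).

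The central pair apparatus relays the signals that set which dyneins are active. Of its 6 members 5 were higher, beside 12.6% of all tested genes, with a median log2 fold change of 0.69. *Hydin* had 17.9, 19.1 and 20.4 CPM in Deletion libraries, against 13.3, 13.2 and 11.8 CPM in WT libraries (log2 fold change 0.56, SE 0.06, adjusted p = 0.00210). HYDIN forms a projection of the central pair, and its loss in mice causes hydrocephalus. Its groups were well apart. *Cfap46* had 4.32, 4.23 and 4.69 CPM in Deletion libraries, against 2.32, 2.43 and 2.25 CPM in WT libraries (log2 fold change 0.90, SE 0.11, adjusted p = 0.00222). *Cfap54* had 10.7, 11 and 9.16 CPM in Deletion libraries, against 6.16, 7.71 and 5.80 CPM in WT libraries (log2 fold change 0.63, SE 0.13, adjusted p = 0.0121). *Spag17* had 3.37, 3.56 and 2.63 CPM in Deletion libraries, against 1.80, 2.12 and 1.45 CPM in WT libraries (log2 fold change 0.76, SE 0.17, adjusted p = 0.0178). These 3 proteins belong to projections of the C1 microtubule. Each gene had all Deletion libraries above all WT libraries in CPM. *Cfap46* had overlapping groups in TPM, with 1.71, 0.897 and 1.41 TPM in Deletion libraries, against 1.12, 1.11 and 0.490 TPM in WT libraries. With length-scaled counts its log2 fold change was 0.38 and its call was lost (adjusted p = 0.176). Its full-length Cfap46-202 held 295, 309 and 313 estimated counts in Deletion libraries, against 165, 149 and 161.5 in WT libraries, not scaled for depth. *Cfap65* had 10.6, 9.85 and 9.53 CPM in Deletion libraries, against 5.74, 5.70 and 4.47 CPM in WT libraries (log2 fold change 0.84, SE 0.08, adjusted p = 0.00128). CFAP65 lies on the C2 side of the central pair. *Spag6l*, which encodes a C1 protein, had 9.10, 8.73 and 8.18 CPM in Deletion libraries, against 8.28, 8.88 and 6.26 CPM in WT libraries with overlapping groups (log2 fold change 0.08, SE 0.10, adjusted p = 0.575). The central pair genes summed to 56.0, 56.4 and 54.6 CPM in Deletion libraries, against 37.6, 40.0 and 32.0 CPM in WT libraries.

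**Figure D2:**
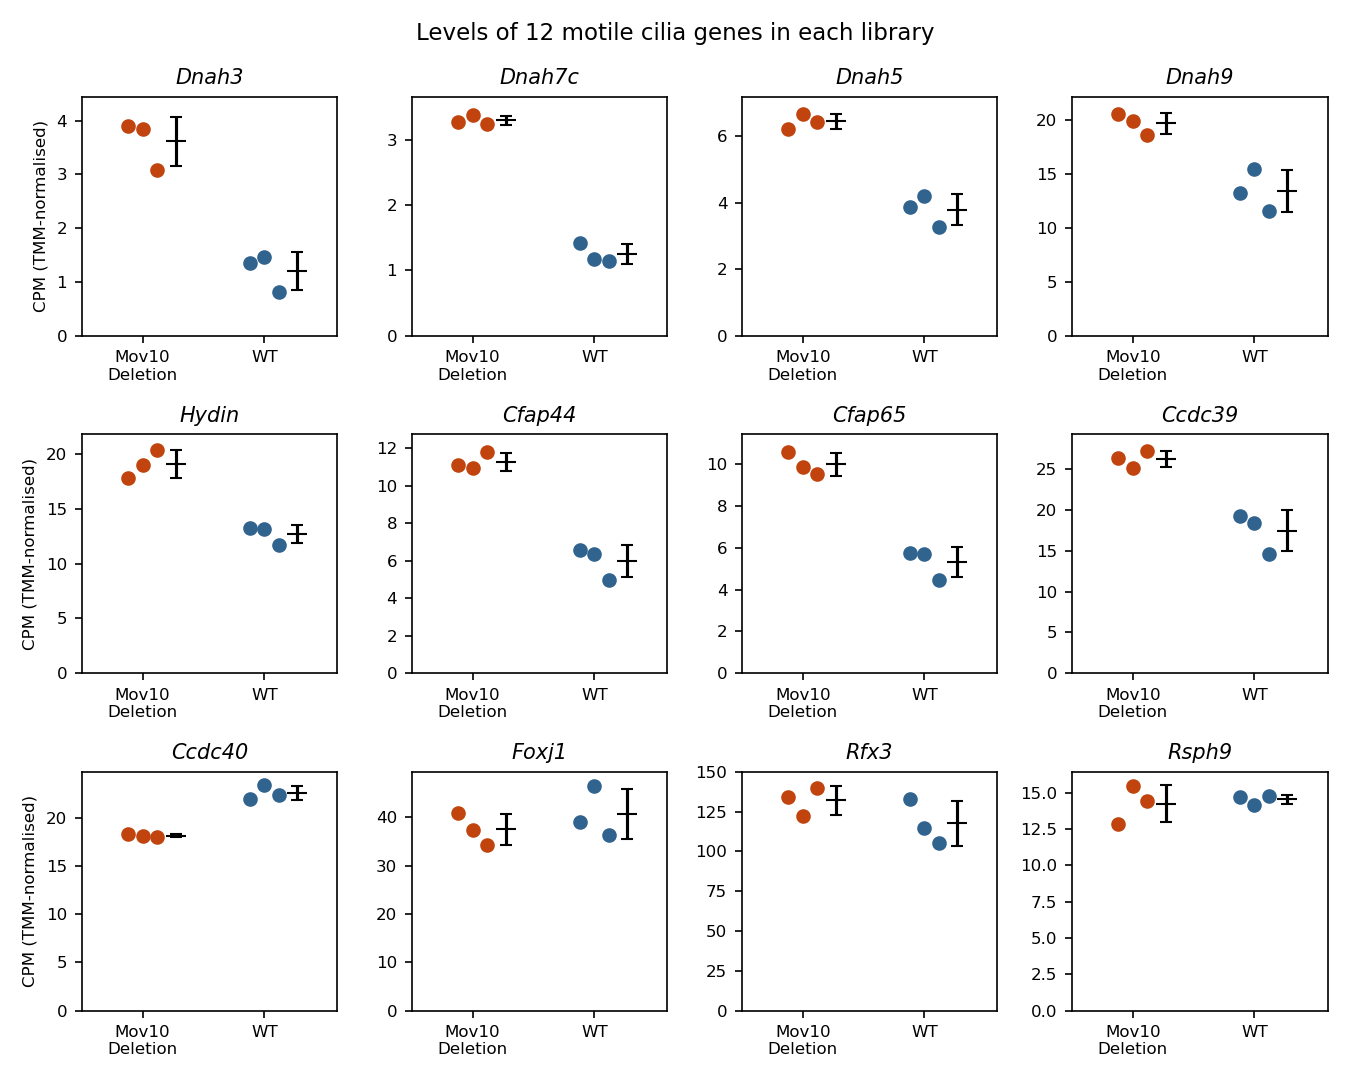
TMM-normalised CPM (y axis, starting at 0) of 12 members in each library, with Mov10 Deletion left of WT in each panel and the mean with its SD (n = 3) beside the points. Deletion libraries lie above WT libraries in the upper 8 panels and below them for Ccdc40, while the groups overlap for Foxj1, Rfx3 and Rsph9.

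Radial spokes connect the doublets with the central pair, and the 3 members encode parts of the spoke head. None passed, and their median log2 fold change was 0.23. *Rsph1* had 8.18, 8.34 and 6.79 CPM in Deletion libraries, against 6.31, 7.74 and 4.84 CPM in WT libraries (log2 fold change 0.24, SE 0.15, adjusted p = 0.273). *Rsph4a* had 6.54, 6.13 and 4.99 CPM in Deletion libraries, against 4.95, 5.44 and 3.94 CPM in WT libraries (log2 fold change 0.23, SE 0.12, adjusted p = 0.220). *Rsph9* had 12.9, 15.4 and 14.4 CPM in Deletion libraries, against 14.7, 14.2 and 14.8 CPM in WT libraries (log2 fold change -0.02, SE 0.06, adjusted p = 0.824). All 3 had overlapping groups. The value of *Rsph9* was close to 0 and its sign changed with upper-quartile scaling. *Rsph1* was higher without WT replicate 2 (log2 fold change 0.39, adjusted p = 0.0262).

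CCDC39 and CCDC40 form a molecular ruler along the doublet that sets the axonemal repeat, and act as partners. Their genes differed in opposite directions. *Ccdc39* had 26.4, 25.2 and 27.2 CPM in Deletion libraries, against 19.3, 18.4 and 14.6 CPM in WT libraries (log2 fold change 0.52, SE 0.06, adjusted p = 0.00210). *Ccdc40* had 18.3, 18.1 and 18.0 CPM in Deletion libraries, against 21.9, 23.3 and 22.4 CPM in WT libraries (log2 fold change -0.31, SE 0.05, adjusted p = 0.00662). *Ccdc39* was higher and *Ccdc40* lower in each Deletion library than in any WT library. With length-scaled counts the call of *Ccdc40* was lost (log2 fold change -0.26, adjusted p = 0.114). *Drc1*, a subunit of the nexin-dynein regulatory complex that links neighbouring doublets, had 11.1, 12.7 and 12.1 CPM in Deletion libraries, against 13.0, 13.3 and 12.4 CPM in WT libraries (log2 fold change -0.11, SE 0.06, adjusted p = 0.211). Its groups overlapped.

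CFAP43 and CFAP44 tether the inner arm dynein f to the doublet, and both genes were higher. *Cfap44* had 11.1, 10.9 and 11.8 CPM in Deletion libraries, against 6.58, 6.36 and 4.99 CPM in WT libraries (log2 fold change 0.85, SE 0.08, adjusted p = 0.00129). *Cfap43* had 3.87, 2.79 and 3.15 CPM in Deletion libraries, against 2.09, 2.59 and 2.04 CPM in WT libraries (log2 fold change 0.50, SE 0.13, adjusted p = 0.0261). *Cfap44* had the wider gap between groups, while the lowest Deletion library of *Cfap43* was just above the highest WT library. In TPM the groups of *Cfap43* overlapped, with 1.56, 1.29 and 1.45 TPM in Deletion libraries, against 1.14, 1.35 and 0.859 TPM in WT libraries. Without Deletion replicate 1 *Cfap43* did not pass (log2 fold change 0.39, adjusted p = 0.0629). With length-scaled counts neither *Cfap43* (0.30, adjusted p = 0.208) nor *Cfap44* (0.82, adjusted p = 0.0526) passed. *Ak7* (adenylate kinase 7, an enzyme of nucleotide supply in cilia) had 5.92, 5.01 and 4.96 CPM in Deletion libraries, against 3.84, 4.63 and 3.29 CPM in WT libraries (log2 fold change 0.38, SE 0.12, adjusted p = 0.0535). It lay just outside the threshold, with groups apart, and passed in 9 of 21 alternatives, among them the fits without factors (adjusted p = 0.0459), without Deletion replicate 2 (0.0323), WT replicate 1 (0.0406) or WT replicate 2 (0.00993). *Tekt1* had 5.43, 5.53 and 5.03 CPM in Deletion libraries, against 4.65, 5.38 and 4.65 CPM in WT libraries (log2 fold change 0.12, SE 0.10, adjusted p = 0.425). *Tekt2* had 3.01, 3.23 and 3.78 CPM in Deletion libraries, against 3.11, 3.11 and 3.24 CPM in WT libraries (log2 fold change 0.10, SE 0.11, adjusted p = 0.561). Tektins form filaments inside the doublet microtubules, and for both genes the groups overlapped.

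The regulators are transcription and cell cycle factors of ciliogenesis. None was higher and 1, *Rfx2*, was lower, and several of these calls turn on a single library. *Foxj1* had 40.8, 37.4 and 34.4 CPM in Deletion libraries, against 39.1, 46.5 and 36.4 CPM in WT libraries (log2 fold change -0.15, SE 0.09, adjusted p = 0.246). FOXJ1 is the main transcription factor of motile ciliogenesis. Its groups overlapped, with the highest value in WT replicate 2. *Rfx3* had 134, 122 and 139.9 CPM in Deletion libraries, against 133, 115 and 105 CPM in WT libraries (log2 fold change 0.11, SE 0.06, adjusted p = 0.191). *Rfx2* had 6.25, 5.75 and 6.39 CPM in Deletion libraries, against 7.84, 6.98 and 7.39 CPM in WT libraries (log2 fold change -0.29, SE 0.09, adjusted p = 0.0475). RFX factors bind ciliary gene promoters together with FOXJ1. *Rfx2* was lower by a small margin, next to the threshold of 0.05, and its call was kept in 11 of 21 alternative settings. It was lost without Deletion replicate 2 (adjusted p = 0.0637) and without WT replicate 1 (0.114). In TPM the groups of *Rfx2* overlapped, with 3.70, 3.81 and 4.19 TPM in Deletion libraries, against 4.68, 3.99 and 4.45 TPM in WT libraries. *Mcidas* had 1.69, 1.70 and 1.18 CPM in Deletion libraries, against 1.66, 1.81 and 1.44 CPM in WT libraries (log2 fold change -0.17, SE 0.19, adjusted p = 0.529). *Ccno* had 3.27, 3.16 and 2.83 CPM in Deletion libraries, against 3.91, 4.31 and 3.08 CPM in WT libraries (log2 fold change -0.35, SE 0.12, adjusted p = 0.0722). MCIDAS starts the multiciliation program and cyclin O is needed for mass production of centrioles. Both had overlapping groups. *Rfx3* was higher without Deletion replicate 2 (log2 fold change 0.17, adjusted p = 0.00327) and without WT replicate 1 (0.26, 0.00391). *Foxj1* was lower without WT replicate 3 (-0.19, 0.0427), and *Ccno* was lower without that library (-0.42, 0.0196), without Deletion replicate 1 (-0.39, 0.0411) or without Deletion replicate 2 (-0.39, 0.0330), and also with the length correction (-0.39, 0.0393). Summed over the 5 regulators, the level was 186, 170.1 and 185 CPM in Deletion libraries, against 185, 174 and 153 CPM in WT libraries, with overlapping groups. Most of each sum was *Rfx3*, so it says little about the other regulators.

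Per transcript length, the members ranged widely. In WT libraries mean TPM was 38.8 for *Rfx3*, 37.8 for *Rsph9*, 25.9 for *Foxj1* and 17.9 for *Ccdc39*, and 0.0716 for *Dnah17* at the low end. Apart from *Dnah7a*, the heavy chain gene with the largest TPM was *Dnah2*. Summed over its transcripts it had 6.34, 6.96 and 8.39 TPM in Deletion libraries, against 4.83, 5.78 and 4.37 TPM in WT libraries. Short transcripts enter that sum: the 924-base Dnah2-204 held 90.0, 66.4 and 95.5 estimated counts in Deletion libraries, against 68.5, 61.5 and 52.5 in WT libraries. The other heavy chains, leaving out *Dnah7a* with its short transcript, had mean levels of at most 3.80 TPM in Deletion libraries and 2.82 TPM in WT libraries, both of *Dnah9*.

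**Figure D3:**
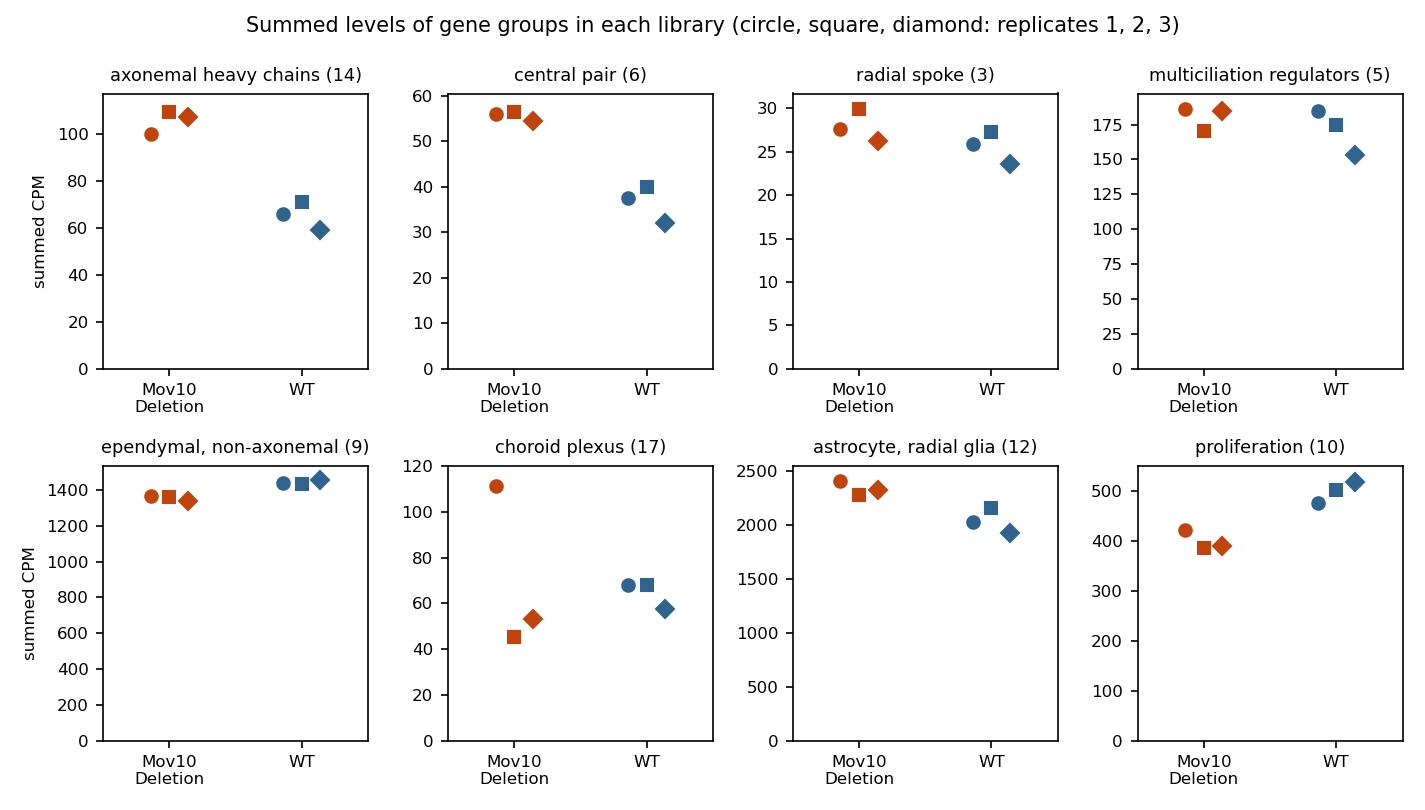
Summed CPM (y axis, starting at 0) of 4 groups of members, above, and 4 lists of marker genes, below, in each library, with Mov10 Deletion left of WT and symbols for the replicate number. The heavy chain sum lies between 100.3 and 109 in Deletion and between 59.0 and 71.3 in WT, while the choroid plexus sum is widely spread within Deletion. Most of the ependymal sum is Cd24a, and most of the regulator sum is Rfx3.

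Dynein heavy chain genes have some of the longest mRNAs in the genome, and transcript length moved with the result. Of the 171 tested genes whose leading transcript has at least 12000 bases, 52.0% were called higher and 2.34% lower, with a median log2 fold change of 0.22. Without the 14 members among them, 48.4% of the remaining 157 genes were higher, and their median was 0.20. The 14 members at that length had 13 called higher and a median of 0.75. Members of at least 6000 bases had 17 of 19 called higher (median 0.76), where 22.9% of all genes of that length were higher. Members under 6000 bases had 3 of 19 higher and 2 lower (median 0.10), where 11.2% of all such genes were higher. Of those 3, *Cfap43* with 5968 bases and *Cfap65* with 5727 lay just under the division, and *Ccdc39* had 3606. The split of the members by role is therefore also a split by length: spoke heads, tektins, intermediate chains and most regulators are short. *Rfx3*, with 9146 bases, and *Dnah17*, with 13612 bases, were the members long by their leading transcript that did not pass. *Dnah7a*, which did not pass either, counts as short here by its 732-base leading transcript. Its full-length transcript has 12245 bases. When each library was corrected for a smooth function of transcript length, 20 members were higher and 3 lower, with a median of 0.41 where the median of all genes was -0.037. The same correction left 30.4% of genes of at least 12000 bases called higher, and 17 of the 19 long members against 3 of the 19 short ones. The share of higher genes among all calls was 33.5% after this correction and 50.9% before it. What part length or RNA quality had in the member values was not tested. The bins, the division at 6000 bases and the correction were chosen after seeing the data.

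**Figure D4:**
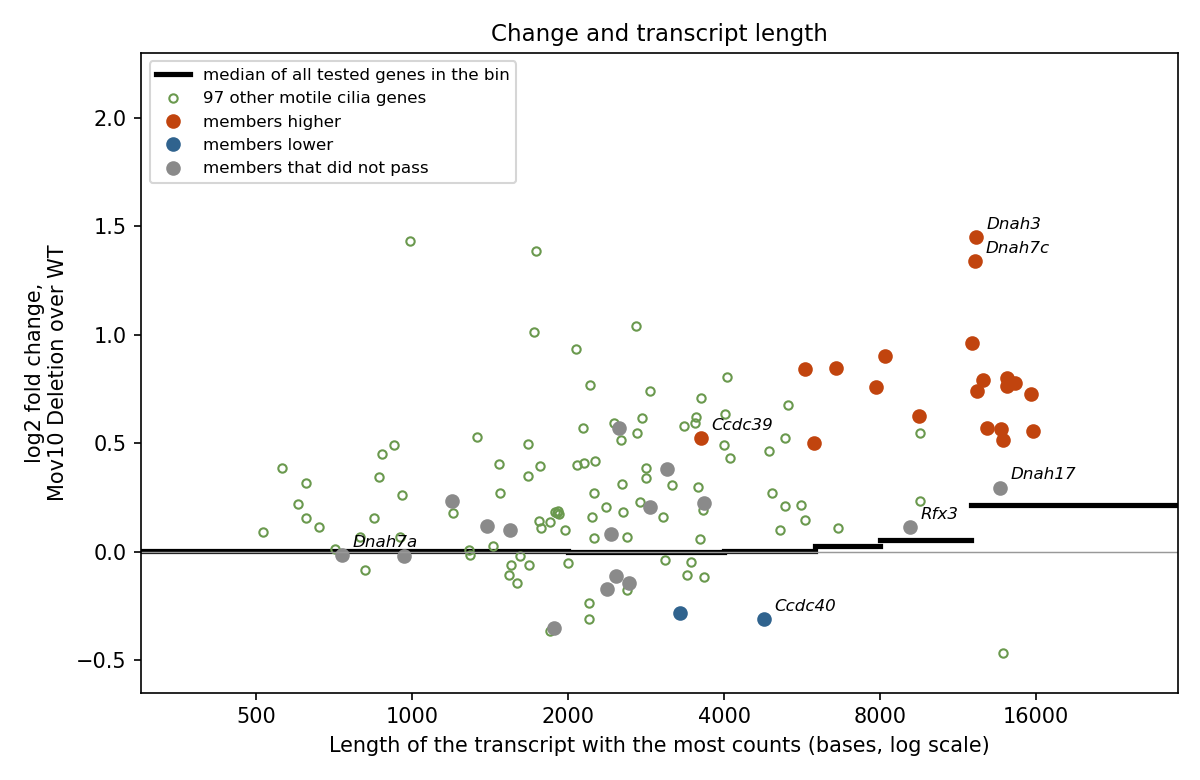
Log2 fold change (y axis, Mov10 Deletion over WT) against the length of the transcript with the most counts (x axis, bases, log scale) for the 38 tested members and 97 other motile cilia genes, with black lines for the median of all tested genes in 6 length bins. The black line is at 0.22 from 12000 bases on, and 13 of the 14 members there are called higher.

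Motile cilia genes outside the members were examined through a list of 106 names picked by function, of which 104 matched and 97 were tested. Of these, 24 were higher and 2 lower, with a median log2 fold change of 0.22, again beside 12.6% and 12.1% of all genes. Earlier results of these data were known when the list was drawn up, so its counts too are only description. The list holds mostly short transcripts: 93 of the 97 had fewer than 6000 bases, and all 24 that were higher were among them. *Dnai4* had 9.03, 7.01 and 6.54 CPM in Deletion libraries, against 4.74, 4.05 and 2.97 CPM in WT libraries (log2 fold change 0.81, SE 0.09, adjusted p = 0.00183). DNAI4 takes part in the assembly of axonemal dynein. *Cfap100* had 3.07, 2.83 and 2.86 CPM in Deletion libraries, against 1.68, 1.43 and 1.16 CPM in WT libraries (log2 fold change 0.94, SE 0.12, adjusted p = 0.00260). *Cfap70* had 2.97, 3.09 and 3.10 CPM in Deletion libraries, against 1.99, 1.80 and 1.63 CPM in WT libraries (log2 fold change 0.71, SE 0.11, adjusted p = 0.00552). CFAP100 and CFAP70 are axonemal proteins. All 3 genes had Deletion above WT with no overlap. *Rsph3a* had 21.0, 23.3 and 21.2 CPM in Deletion libraries, against 27.8, 26.6 and 26.2 CPM in WT libraries (log2 fold change -0.31, SE 0.05, adjusted p = 0.00678). This radial spoke gene was lower in each Deletion library. With the sex score in place of the factors, 8 of the other motile cilia genes and 17 of the members were higher.

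RFX factors recognise a short word in the promoters of ciliary genes, and its presence was looked up as a feature that did not enter the choice of members. In the 300 bases from 250 before to 50 after the canonical start (GENCODE M39, GRCm39), the word GTTGCCA on either strand was present in 10 of 39 members (25.6%) and in 7 of the 20 called higher. It was present in 24.0% of 104 other motile cilia genes and in 4.13% of 21770 coding genes. The forkhead word GTAAACA was present in 2 members (5.13%) and in 7 of the 104 other motile cilia genes (6.73%), against 3.15% of all coding genes. An X-box of GTTNCC and GGNAAC with 1 to 3 bases between them can overlap the first word. It was present in 0 members and in 4 of the 104 other motile cilia genes (3.85%), against 0.684% of all coding genes. With so low a share over all genes, 0 among 39 members says little. These are matches of letters and not measured binding. The 7 higher members are shown because they hold the word, which is in capitals (TGGCAAC where it lies on the other strand), each read in the direction of its gene and with the match nearest to the start for *Cfap44*.
Dnah1, chr14:31046104-31046133, minus strand: cattattcaaaGTTGCCAtgctgcctttga
Dnah7b, chr1:46105839-46105868, plus strand: acaggagcacaGTTGCCAcccacccttaag
Cfap65, chr1:74974777-74974806, minus strand: gggttgccgtcGTTGCCAtgggataccaaa
Cfap44, chr16:44215131-44215160, plus strand: ggacgttgctaTGGCAACcgcagtaaacgg
Dnah10, chr5:124802148-124802177, plus strand: ctagggtcgccGTTGCCAcggacgcccgcc
Hydin, chr8:110993584-110993613, plus strand: tgcggttgctgTGGCAACagatggtaacaa
Cfap54, chr10:92917495-92917524, minus strand: tgccgggagatcgttgctTGGCAACcgctt

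Relative to the first transcribed base, the word began 207 bases before it in *Dnah1*, 163 before in *Dnah7b*, 37 before in *Cfap65* and 10 before in *Cfap44*. It began 10 bases after it in *Dnah10*, 12 after in *Hydin* and 38 after in *Cfap54*. *Drc1*, *Mcidas* and *Ccno*, which did not pass, hold the word too. It is also absent from the windows of 13 of the 20 higher members, among them *Dnah3* and *Dnah7c*.

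The cell types that carry or precede motile cilia were checked through marker lists. The counts of each list stand beside 12.6% higher and 12.1% lower over all tested genes. Of 9 ependymal markers that are not part of the axoneme, 1 was higher and 1 lower. They summed to 1369, 1363 and 1337 CPM in Deletion libraries, against 1438, 1434 and 1459 CPM in WT libraries. Most of each sum was *Cd24a*, with 887.7, 910.5 and 881.9 CPM in Deletion libraries, against 941.6, 935.3 and 977.6 CPM in WT libraries. The sum therefore says little about the less abundant markers. *S100b* had 0.845, 0.707 and 0.546 CPM in Deletion libraries, against 0.372, 0.423 and 0.286 CPM in WT libraries (log2 fold change 0.81, SE 0.24, adjusted p = 0.0425). *Vim* had 339, 311 and 322 CPM in Deletion libraries, against 359, 354 and 343 CPM in WT libraries (log2 fold change -0.14, SE 0.03, adjusted p = 0.0242). *S100b* marks maturing ependymal cells and glia, and *Vim* encodes the intermediate filament of radial glia and ependyma. Each had groups apart. Of 17 choroid plexus markers 16 were tested and only *Ttr* passed, as lower (log2 fold change -1.33, SE 0.25, adjusted p = 0.00924), although its groups overlapped and its mean CPM was higher in Deletion (16.7) than in WT (10.1). Without the factors 0 of the 16 were called lower. The 17 summed to 111, 45.4 and 53.2 CPM in Deletion libraries, against 67.9, 67.9 and 57.5 CPM in WT libraries, with the highest and the lowest library both in Deletion. Among 12 astrocyte and radial glia genes 4 passed, all higher, and the list summed to 2406, 2278 and 2328 CPM in Deletion libraries, against 2028, 2161 and 1925 CPM in WT libraries. *Aqp4* had 45.2, 40.1 and 37.9 CPM in Deletion libraries, against 16.7, 23.4 and 14.1 CPM in WT libraries (log2 fold change 1.15, SE 0.15, adjusted p = 0.00279). Aquaporin 4 is the water channel of astrocytes and ependyma, and its groups were far apart. *Gfap* (log2 fold change 0.64), *Fabp7* (0.48) and *Hes5* (0.46) were the others that were higher. All 10 proliferation genes were lower, with a median of -0.38 and sums of 423, 387 and 389.9 CPM in Deletion libraries, against 478, 503 and 519 CPM in WT libraries. The 4 with the smallest p were *Cenpf* (log2 fold change -0.42), *Cdc20* (-0.66), *Aspm* (-0.49) and *Ccnb1* (-0.62), which act in mitosis. The part of glial, ependymal or choroid plexus content in the member values was not tested. Of 22 other multiciliation regulators 2 passed, both higher, *Rfx5* (0.30) and *Cep63* (0.17), and the median of the list was 0.00.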

How the data were processed

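Estimated counts, TPM and effective lengths per transcript were deposited by the authors for 3 *Mov10* Deletion and 3 WT libraries, as written by Salmon 1.4.0 with the GRCm39 genome as decoy. The estimated counts the authors deposited are not normalized, and their TPM take account of effective length and depth. The annotation release of the index: not given in the sources used here. Groups and replicate numbers came from the sample titles.

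Of 139225 transcripts, 137570 matched GENCODE M39 by identifier, and the rest, at most 0.600% of the counts, was left out. Estimated counts were summed per gene and used without rounding. Genes reaching 0.25 CPM in 3 libraries or more, 16745 in all, were TMM-normalized (edgeR 4.0.16) and tested with limma-trend (limma 3.58.1, R 4.3.3) on log2 CPM with a prior count of 2, with genotype and 2 RUVs factors of unwanted variation in the model and Benjamini-Hochberg adjustment over all tested genes at 0.05. This follows the study's methods, which name RUVSeq but neither its function nor its input. RUVs was written out in R with all tested genes as controls. Its input, the log of normalized counts plus 1, was taken after other inputs had been run on these data. The factors come from the same libraries, so p-values measure only the spread between pools that they leave, on 2 residual and 5.89 prior degrees of freedom.

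The members and lists were chosen with earlier results of these data known. Every member is accounted for, with the value of each library for members called, those of at least 1 TPM on average and the regulators. From the other lists up to 4 genes by smallest p are named, and all 10 of the Cajal-Retzius and hem list. Identity of the *Dnah7* copies was computed from coding sequences, since no protein table was used. Alternatives covered scaling, filter, factors, a sex score, edgeR's quasi-likelihood test and DESeq2 on rounded counts, the prior count, length-scaled counts, a replicate block, each library left out, and, chosen after seeing the data, a length correction and other RUVs inputs.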

Additional observations from a re-analysis of the deposited data

How the results depend on the processing

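Against 20 members higher and 2 lower, 10 were higher and 1 lower with no filter on low counts (29469 genes tested, 925 called). Members lower numbered 1 with upper-quartile scaling, no factors, the sex score, length-scaled counts and the replicate block (without factors), and also with RUVs factors from log2 CPM or from unscaled log counts. Leaving out each library gave 19 to 23 higher and 1 to 4 lower, with 1 lower without WT replicate 1 and 4 without WT replicate 3. The median of 0.52 was 0.33 with length-scaled counts, 0.41 with the length correction and 0.46 to 0.59 with libraries left out. Of the other motile cilia genes (24 higher, 2 lower), 3 were higher and 1 lower with no filter, 8 and 0 with the sex score (1364 genes called), 1 lower with upper-quartile scaling and 0 lower with length-scaled counts. Libraries left out gave 22 to 31 higher and 1 to 3 lower. The causes were not tested.

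*Dnah7a* changed sign to 0.0051 with upper-quartile scaling, 0.036 with the sex score, 0.064 with length-scaled counts, 0.015 without Deletion replicate 1 and 0.039 without WT replicate 2, and ran between -0.095 and 0.039 over the libraries left out. The 3 *Dnah7* copies summed, mostly *Dnah7b*, gave 0.68 in place of the value of *Dnah7a* alone. *Rsph9* changed sign to 0.0039 with upper-quartile scaling, 0.064 with the sex score, 0.0092 with length-scaled counts and 0.043 without Deletion replicate 1, and ran between -0.073 and 0.043 over the libraries left out. *Dnah8* changed to -0.85 with length-scaled counts and is the 1 member lower there, since *Rfx2* and *Ccdc40* lost their calls. Over 797 pairs of member and alternative, direction and call were kept in 735, a call was lost in 29 and gained in 23. Of the 20 higher members 8 kept the call in all 21 alternatives: *Dnah2*, *Dnah3*, *Dnah5*, *Dnah6*, *Dnah7b*, *Dnah7c*, *Hydin* and *Cfap65*. Without the filter 10 lost it, with length-scaled counts 5 (*Dnah8*, *Dnah11*, *Cfap43*, *Cfap44* and *Cfap46*) and with the sex score 3. *Rfx2* lost its call in 10 alternatives, both other RUVs inputs among them.

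Deviations of same-numbered libraries from their group means had r = 0.011, -0.071 and 0.043 across genes, which are not independent. Differently numbered libraries ran between -0.095 and 0.103. With 3 libraries per group, these values give no ground for pairing by number but cannot exclude it. The replicate block gave 22 members higher and 1 lower. Counting error limits *Tmem212* and *Dnah17*, which rest on few counts.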

Other observations

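Of 62 genes of the primary cilium and of intraflagellar transport, the traffic that builds cilia, 9 were higher and 6 lower, beside 12.6% and 12.1% of all tested genes, with a median log2 fold change of 0.06. *Ift172* had 55.3, 57.0 and 61.2 CPM in Deletion libraries, against 44.9, 43.6 and 37.0 CPM in WT libraries (log2 fold change 0.42, SE 0.05, adjusted p = 0.00253). *Bbip1* (0.27) was also higher, and *Ift70b* (-0.24) was lower.

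The cortical hem is a source of Cajal-Retzius cells beside the choroid plexus. It was covered by a list of 10 Cajal-Retzius and hem genes, of which 1, *Calb2* (0.18), was higher and 4 were lower. *Rspo1* had 3.47, 2.10 and 2.34 CPM in Deletion libraries, against 4.67, 5.32 and 4.93 CPM in WT libraries (log2 fold change -0.96, SE 0.10, adjusted p = 0.00150). The Wnt genes *Wnt2b* (-1.02) and *Wnt3a* (-1.33) and the hem factor *Lmx1a* (-0.72) were the others that were lower. The Cajal-Retzius genes *Reln* (-0.06), *Trp73* (-0.02), *Lhx5* (-0.11), *Lhx1* (-0.12) and *Ebf3* (-0.05) were not called. Among 15 genes of hippocampal excitatory neurons 3 were higher and 2 lower. For both lists, the shares over all tested genes were 12.6% higher and 12.1% lower. *Nrgn* (0.56) and *Zbtb20* (0.28) were higher, and *Lhx2* (-0.28) and *Emx2* (-0.19) lower.

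Sperm flagella use many of the same heavy chains. Of 10 male germ cell genes 2 passed the filter and neither was called (*Ddx4* 0.47, adjusted p = 0.0695, and *Zpbp* 0.17, adjusted p = 0.675), and *Prm1*, *Prm2*, *Tnp1*, *Tnp2* and *Akap4* had 0 counts in all 6 libraries.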
